A study of Arabidopsis thaliana with 17 samples.

Results

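The 10 genes described here encode WRKY transcription factors of plant immunity: WRKY6, WRKY18, WRKY22, WRKY29, WRKY33, WRKY40, WRKY53, WRKY60, WRKY70 and WRKY75 of Arabidopsis thaliana. They were chosen by locus, each stood alone on its own row, and all 10 were found among 33201 rows of the authors' deposited table of pooled expression. The study measured RNA in 17 libraries from root cells, in 6 groups. Bioprinting lays down living cells in a carrier material with a machine, and the printed object is called a construct. Constructs of tissue labelled meristematic (3 libraries) and isolated cells of that tissue (3 libraries) were taken at day 0. Constructs of tissue labelled differentiated were taken at day 0 (3 libraries), day 1 (3 libraries) and day 3 (2 libraries), and isolated cells of that tissue at day 0 (3 libraries). Every group, the isolated cells included, carried pSCR:SCR-mCherry, in which the SCARECROW promoter drives a fusion of SCARECROW to a red fluorescent protein. That promoter is active in the endodermis and stem cell niche, while plant age and any sorting of the cells are not stated in the labels. Nothing in the labels says that libraries of a group came from separate plants.

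WRKY proteins bind a short DNA element, the W-box, through a domain named after its amino acids. When receptors at the cell surface detect microbial or damage-derived molecules, a mitogen-activated protein (MAP) kinase cascade is switched on, and WRKY factors are among its outputs. Some activate defence genes and others restrain them, and many WRKY genes are themselves induced rapidly by wounding or microbial molecules.

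Values are FPKM, fragments per length of transcript and per number of mapped fragments, pooled by the authors to 1 value per group. FPKM carries no read total, so the depth behind a value is unknown. Lines of the table of single libraries mix genes, so a gene has no SD and its error is known only through the authors' q-value. A gene was called higher or lower where the q-value of the authors' deposited table was under 0.05 and its FPKM was at least 1 in 1 or both groups. Ratios are log2 ratios of the first group over the second, and the smallest q in the table was 0.000551. Summed over all genes, pooled FPKM was lowest in differentiated constructs at day 3 and highest in meristematic cells.

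The tissue labels were checked against markers. Of 5 root meristem markers, none was called higher and PLT1, a stem cell niche factor, was lower in cells labelled meristematic against cells labelled differentiated (log2 ratio -1.88, q 0.0283, in the authors' deposited table). The list summed to 30.3 FPKM in meristematic and 39.8 FPKM in differentiated cells, and PLT1 and the mitotic cyclin gene CYCB1;1 were under 1 in the meristematic cells. Root cap markers summed to 152 FPKM in meristematic and 66.5 FPKM in differentiated cells, with 2 of 3 called higher. Markers of differentiated root cells summed to 1035 FPKM in meristematic and 927 FPKM in differentiated cells. Of 8 tested, 7 had a ratio above 0 for meristematic over differentiated cells, and none was called. "Meristematic" and "differentiated" are therefore used below as labels only. Of 4 shoot markers, all were under 1 in 5 groups, and 3 of 4 in meristematic constructs.

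Of the 10 immune WRKY genes, 9 reached 10 FPKM in meristematic constructs and in both groups of isolated cells, and 8 in differentiated constructs at day 0. In differentiated constructs 5 of the 10 fell by day 3, against 21.2% of all genes tested, while 1 rose, against 21.0%. Summed over the 10 genes, FPKM was 1388 in meristematic constructs and 1531 in meristematic cells. In differentiated constructs the sum was 1026.5 on day 0, 602 on day 1 and 429 on day 3, and in differentiated cells it was 1276. As a share of all FPKM, the 10 genes made up 0.142% in meristematic constructs, 0.124% in meristematic cells and 0.128% in differentiated cells. In differentiated constructs that share was 0.111% on day 0, 0.0739% on day 1 and 0.0579% on day 3. Meristematic cells, highest by sum, were thus not highest by share. The median of the 10 was 88.7 FPKM in differentiated constructs on day 0, 32.3 on day 1 and 27.4 on day 3, against 99.96 FPKM in differentiated cells. In bulk RNA, fewer cells of a type and less RNA per cell cannot be told apart.

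**Figure D1:**
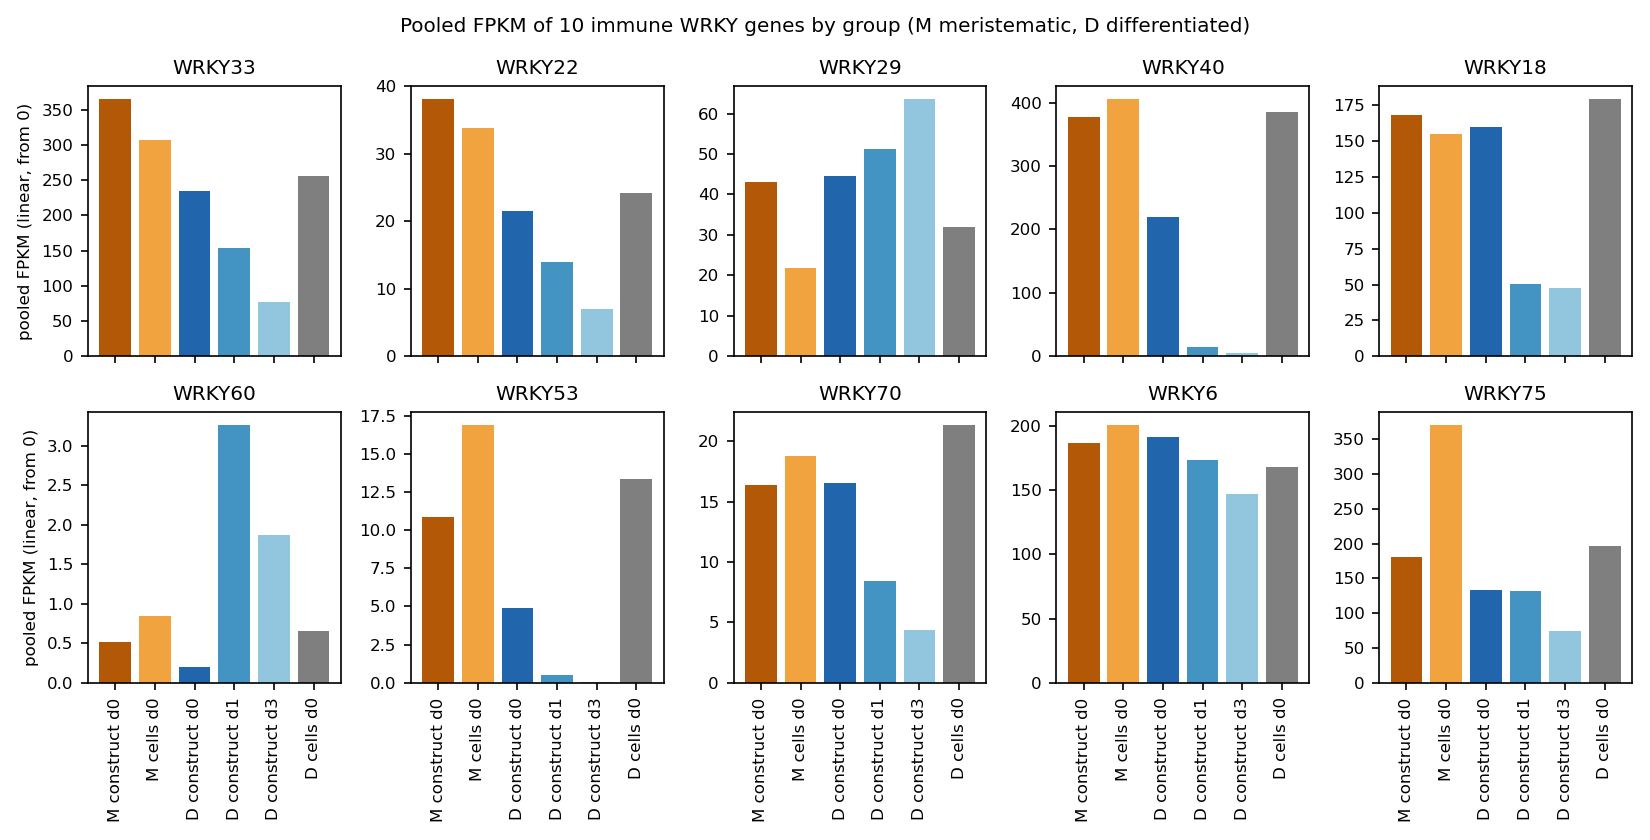
Pooled FPKM (linear axes from 0, 1 scale per gene) of each of the 10 genes in the 6 groups; bars are the authors' pooled values, so no error is shown. WRKY40 stood at 5.33 in differentiated constructs at day 3 and 385 in differentiated cells, while WRKY29 was highest at day 3, at 63.6, and WRKY60 at day 1, at 3.26.

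WRKY33, WRKY22 and WRKY29 act downstream of MAP kinases. WRKY33 (AT2G38470), a substrate of MPK3 and MPK6 that activates synthesis of the antimicrobial compound camalexin, had an FPKM of 365 in meristematic constructs and 308 in meristematic cells. WRKY33 in differentiated constructs stood at 234 on day 0, 153 on day 1 and 77.5 on day 3, against 256 in differentiated cells. Each later sampling day was thus lower, and day 3 lay below the 4 groups of day 0. WRKY33 fell at day 3 against day 0, with a log2 ratio of -1.60 (q 0.000551) in the authors' deposited table. Neither single step passed, with log2 ratios of WRKY33 of -0.61 (q 0.276) for day 1 over day 0 and -0.98 (q 0.103) for day 3 over day 1 in the authors' deposited table. In the TAIR10.1 reference, a protein-coding gene (AT2G38480, at most 26.7 FPKM here) and a long non-coding RNA overlap WRKY33. Single protein-coding genes also overlap WRKY29, WRKY40 and WRKY53, each at an FPKM below that of its partner's highest group (at most 0.0381, 2.26 and 6.55). The maximum of the gene overlapping WRKY53 exceeded WRKY53 itself in differentiated constructs on day 0 (4.91), day 1 (0.494) and day 3 (0.0539). WRKY40 stood at 5.33 in differentiated constructs on day 3. The library kit keeps the strand, per the labels' protocols, but whether counting used it is not stated, so reads of such pairs may be shared.

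WRKY22 (AT4G01250), a factor of the flagellin-triggered cascade, had an FPKM of 38.1 in meristematic constructs and 33.8 in meristematic cells. WRKY22 in differentiated constructs stood at 21.5 on day 0, 13.9 on day 1 and 7.05 on day 3, against 24.2 in differentiated cells. It ran parallel to WRKY33 over the 6 groups, with a root mean square difference of 0.0857 between the centred log2(FPKM + 1) profiles, the smallest between any 2 of the 10 genes. The fall of WRKY22 at day 3 against day 0 had a log2 ratio of -1.61 (q 0.00144) in the authors' deposited table.

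WRKY29 (AT4G23550), which acts beside WRKY22 in the same cascade, had its highest level at day 3, where WRKY22 had its lowest. Its FPKM was 43.0 in meristematic constructs and 21.8 in meristematic cells. WRKY29 in differentiated constructs stood at 44.6 on day 0, 51.3 on day 1 and 63.6 on day 3, against 32.0 in differentiated cells. All 4 construct groups thus lay above both groups of isolated cells. Only the meristematic pair passed for WRKY29, with a log2 ratio of 0.98 for constructs over cells (q 0.0208) in the authors' deposited table. The differentiated pair gave 0.48 (q 0.334), and day 3 over day 0 gave 0.51 (q 0.304), for WRKY29 in the authors' deposited table. The difference between the ratios of both tissues was not tested.

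WRKY18, WRKY40 and WRKY60 are close relatives that bind each other and act together on defence and abscisic acid responses, often as repressors. WRKY40 (AT1G80840), a gene also induced quickly by wounding, had the highest FPKM of the 10 in meristematic constructs (378), meristematic cells (406) and differentiated cells (385). WRKY40 in differentiated constructs stood at 219.8 on day 0, 14.0 on day 1 and 5.33 on day 3. Its level was 15.7-fold lower at day 1 than at day 0 (log2 ratio -3.97, q 0.000551) and 41.2-fold lower at day 3 than at day 0 (-5.37, q 0.000551) in the authors' deposited table. The lowering of WRKY40 in differentiated constructs at day 0 against isolated cells, at -0.81, did not pass (q 0.0757) in the authors' deposited table. WRKY40 made up 21.4% of the summed FPKM of the 10 genes in differentiated constructs on day 0, 2.33% on day 1 and 1.24% on day 3, against 30.2% in differentiated cells. Among genes at an FPKM of at least 1, its level stood at percentile 95.3 in differentiated constructs at day 0 and 29.0 at day 3, against 97.2 in differentiated cells.

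WRKY18 (AT4G31800), the partner of WRKY40, had an FPKM of 168 in meristematic constructs and 155 in meristematic cells. WRKY18 in differentiated constructs stood at 160.1 on day 0, 50.6 on day 1 and 47.8 on day 3, against 179 in differentiated cells. The 4 groups of day 0 lay between 155 and 179 FPKM, above both later groups. WRKY18 fell at day 1 against day 0 (log2 ratio -1.66, q 0.000551) and stood at -1.74 at day 3 over day 0 (q 0.000551), with -0.08 between days 1 and 3 (q 0.884), in the authors' deposited table.

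WRKY60 (AT2G25000), the third of these relatives, was the weakest of the 10 at day 0 and rose where WRKY18 and WRKY40 fell. Its FPKM was 0.511 in meristematic constructs and 0.848 in meristematic cells. WRKY60 in differentiated constructs stood at 0.195 on day 0, 3.26 on day 1 and 1.87 on day 3, against 0.656 in differentiated cells. WRKY60 rose at day 1 against day 0 with a log2 ratio of 4.07 (q 0.00538), and the ratio at day 3 was 3.26 (q 0.0411), in the authors' deposited table. Since WRKY60 reached an FPKM of 1 only at days 1 and 3, it could be tested only where one of those groups entered, and with 1 added to each FPKM its log2 ratios were 1.83 and 1.26.

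WRKY53 and WRKY70 belong to the WRKY genes tied to salicylic acid and leaf senescence. WRKY53 (AT4G23810), a positive regulator of senescence, had an FPKM of 10.9 in meristematic constructs and 16.9 in meristematic cells. WRKY53 in differentiated constructs stood at 4.91 on day 0, 0.494 on day 1 and 0.0539 on day 3, against 13.3 in differentiated cells. As plain values it was lower in constructs than in cells of both tissues, and near 0 at day 3. WRKY53 was the only 1 of the 10 called between differentiated constructs and cells at day 0, lower by a log2 ratio of -1.44 (q 0.0311) in the authors' deposited table. Its ratio at day 3 over day 0, at -6.51, was larger in size than that of WRKY40 and rested on its day 0 level alone for the FPKM minimum, yet did not pass (q 0.294) in the authors' deposited table, and neither did day 1 over day 0, at -3.31 (q 0.0814).

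WRKY70 (AT3G56400), a factor that favours salicylic acid over jasmonate responses, had an FPKM of 16.3 in meristematic constructs and 18.8 in meristematic cells. WRKY70 in differentiated constructs stood at 16.5 on day 0, 8.40 on day 1 and 4.38 on day 3, against 21.3 in differentiated cells. It fell at day 1 against day 0 with a log2 ratio of -0.98 (q 0.0406) and was at -1.92 at day 3 (q 0.000551) in the authors' deposited table. The groups of day 0 lay between 16.3 and 21.3 FPKM, above both later groups.

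WRKY6 and WRKY75 join defence and senescence to phosphate supply: WRKY6 represses the phosphate exporter gene PHO1, and WRKY75 takes part in phosphate starvation responses and root hair development. WRKY6 (AT1G62300) was the steadiest of the 10, with an FPKM of 187 in meristematic constructs and 201 in meristematic cells. WRKY6 in differentiated constructs stood at 192 on day 0, 174 on day 1 and 147 on day 3, against 168 in differentiated cells, so that its highest level was 1.36 times its lowest. None of its 7 comparisons passed, and the largest log2 ratio in size was -0.38, at day 3 over day 0 (q 0.471), in the authors' deposited table. With no error per gene, this does not show that WRKY6 was unchanged.

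WRKY75 (AT5G13080) was highest in meristematic cells, with an FPKM of 370, against 181 in meristematic constructs. In differentiated constructs WRKY75 had 133 at both day 0 and day 1 and 74.5 at day 3, against 196 in differentiated cells. It fell in meristematic constructs against meristematic cells with a log2 ratio of -1.03 (q 0.0319) in the authors' deposited table. That size depended on scaling, with -0.69 after rescaling each group to TPM, which moves all genes of that pair alike, and -0.62 after quantile normalization, and the summed FPKM of meristematic cells was the highest of the 6 groups. WRKY75 stood at 0.92 between meristematic and differentiated cells (q 0.0557) and at -0.83 at day 3 over day 0 (q 0.0526), neither passing, in the authors' deposited table. These sizes depended on scaling too. The ratio at day 3 over day 0 was -0.51 after rescaling to TPM and -0.53 after quantile normalization. Rescaling to TPM adds -0.31 to every log2 ratio of meristematic over differentiated cells.

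**Figure D2:**
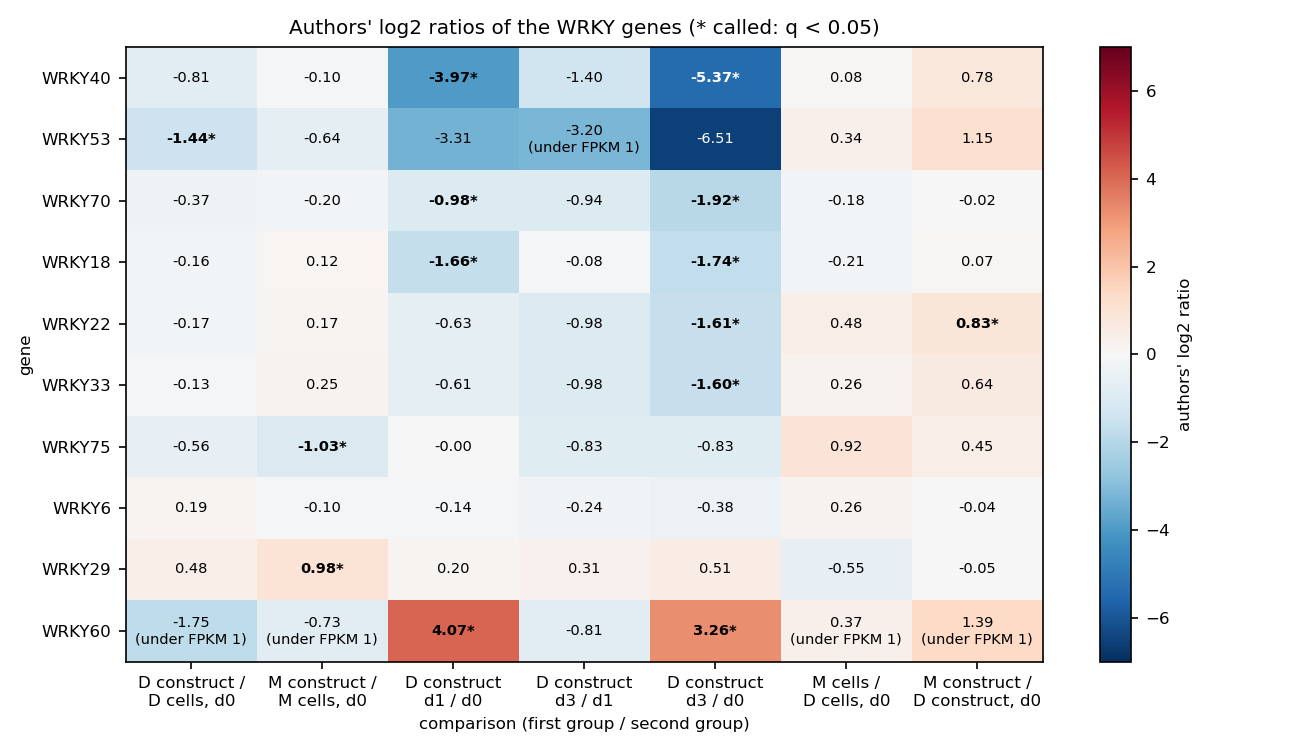
Log2 ratios of the authors' deposited table for the 10 genes (rows) in 7 comparisons (columns, first group over second); colour gives the ratio, an asterisk marks a called gene, and cells under an FPKM of 1 in both groups were not tested. The darkest cells lie in the columns of day 1 and day 3 over day 0, from -6.51 for WRKY53, not called, to 4.07 for WRKY60.

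Day 3 over day 0 in differentiated constructs was the comparison with the most calls among the 10 genes. Isolated cells were sampled at day 0 only, so time in the construct cannot be told apart from time since isolation. At day 3 over day 0, 5 genes fell (WRKY18, WRKY22, WRKY33, WRKY40 and WRKY70), 1 rose (WRKY60) and 4 did not pass, with a median log2 ratio of -1.60 against 0.05 over all genes tested. Over all genes tested, 21.2% were called lower and 21.0% higher. At day 1 over day 0, 3 of the 10 fell (WRKY18, WRKY40 and WRKY70) and 1 rose (WRKY60), against 16.4% of all genes called lower and 16.2% higher. The median of the 10 was -0.62, against 0.06 over all genes. Between day 1 and day 3 none of 9 tested members was called by the authors' q-values, against 8.48% of all genes called lower and 5.88% higher. The median of these 9 was -0.83, against -0.03 over all genes, with 8 of the 9 ratios below 0. Both ratios against day 0 share the day 0 libraries. Markers of differentiated root cells moved over the same days: 8 of 9 fell and 1 rose at day 3 over day 0, with a summed FPKM of 676 on day 0, 435 on day 1 and 111 on day 3. Root cap markers summed to 33.3 on day 0, 19.8 on day 1 and 6.28 on day 3, with 2 of 3 called lower at day 3. Root meristem markers summed to 29.97 on day 0, 9.85 on day 1 and 7.37 on day 3, and 2 of 4 tested were called lower at day 3, the niche genes WOX5 at -3.23 (q 0.000551) and PLT2 at -3.38 (q 0.0103) in the authors' deposited table. Their part in the WRKY values was not tested.

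Constructs were also set against isolated cells at day 0 in each tissue, where printing cannot be told apart from any other difference in handling. In differentiated tissue, 1 of 9 tested members was called lower (WRKY53) and none higher, against 7.38% and 5.08% of all genes, and the median of the 9 was -0.17, against -0.12 over all genes. In meristematic tissue, 1 of 9 was lower (WRKY75) and 1 higher (WRKY29), against 8.52% and 1.86% of all genes, and the median was -0.10, against -0.14 over all genes. Each of these counts is a single gene, and no more is read from them. Rescaling to TPM adds the same 0.34 to every log2 ratio of the meristematic pair, so WRKY6 and WRKY40, both at -0.10 as deposited, are then at 0.23, and their place among all genes is the same by construction.

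Between tissues, no tested member was called in isolated cells, against 4.63% of all genes higher and 3.12% lower in meristematic cells. The median of the 9 was 0.26 for meristematic over differentiated cells, against 0.12 over all genes. In constructs at day 0, WRKY22 was called higher in meristematic than in differentiated ones, with 38.1 and 21.5 FPKM (log2 ratio 0.83, q 0.0352, in the authors' deposited table), and none was lower. Over all genes 4.77% were higher and 4.61% lower, and the median was 0.45 for the 9 members and 0.02 for all. WRKY53 at 1.15 (q 0.0767), WRKY40 at 0.78 (q 0.0890) and WRKY33 at 0.64 (q 0.191) also had ratios above 0 in the authors' deposited table without passing.

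Ordered by level, differentiated constructs at day 3 were the lowest group for 8 of the 10 genes, the exceptions being WRKY29 and WRKY60. Of 50 steps between neighbouring groups in these orders, 35 had a q in the authors' deposited table. Only 1 of the 35 passed, that of WRKY40 between days 0 and 1 of the differentiated construct, 31 did not, and 3 were under an FPKM of 1 in both groups. The order of neighbouring groups is therefore not settled for the other genes, and their called changes span more than 1 step. No deposited comparison sets day 3 against isolated cells. As plain values, differentiated constructs at day 3 were lower than differentiated cells for 8 of the 10, 247-fold for WRKY53, whose day 3 level is near 0, and 72.3-fold for WRKY40. The others were 4.87-fold lower for WRKY70, 3.75-fold for WRKY18, 3.43-fold for WRKY22, 3.31-fold for WRKY33, 2.63-fold for WRKY75 and 1.14-fold for WRKY6. WRKY29 was 1.99-fold and WRKY60 2.85-fold higher at day 3 than in differentiated cells.

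The rest of the WRKY family was found through reference names, with 62 further genes in the table. Of these, 3 lie on rows that join more than 1 gene ID, so their values may not be theirs alone. At day 3 over day 0, 19 of 48 tested fell (39.6%) and 8 rose (16.7%), against 21.2% and 21.0% of all genes, with a median log2 ratio of -0.51. At day 1 over day 0, 12 of 47 fell (25.5%) and 11 rose (23.4%), against 16.4% and 16.2% of all genes. The genes called with the smallest q at day 1 were WRKY30 (AT5G24110) at -3.87, WRKY38 (AT5G22570) at -3.06, WRKY46 (AT2G46400) at -2.80 and WRKY57 (AT1G69310) at 2.34, each with a q of 0.000551 in the authors' deposited table. WRKY46, a relative of WRKY53 and WRKY70 that shares their tie to salicylic acid, had an FPKM of 21.2 in differentiated constructs on day 0, 3.05 on day 1 and 0.478 on day 3, against 44.3 in differentiated cells. At day 3, WRKY13 (AT4G39410), WRKY64 (AT1G66560) and WRKY67 (AT1G66550) were listed at 0 and WRKY24 (AT5G41570) was listed at 0 at day 0. Their FPKM was between 2.42 and 3.73 in the other group, and a 0 in such a table can be a failed estimate. In differentiated constructs over cells at day 0, WRKY36 (AT1G69810) stood at 1.11 (q 0.00290) and WRKY38 at -1.43 (q 0.00102) in the authors' deposited table. WRKY36 also rose in meristematic constructs over cells, at 1.08 (q 0.00834) in the authors' deposited table.

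Upstream of the WRKY factors lie receptors and MAP kinases. Of 16 tested, 4 fell and 2 rose at day 3 over day 0, shares of 25.0% and 12.5%, against 21.2% lower and 21.0% higher over all genes, and the median was -0.61. The share that fell is near that of all genes. PEPR1 (AT1G73080), a receptor for danger peptides released on damage, had an FPKM of 122 in differentiated constructs on day 0, 36.6 on day 1 and 14.5 on day 3, and its ratio at day 3 was -3.07 (q 0.000551) in the authors' deposited table. The row of PEPR1 joins more than 1 gene ID, so these values may not be those of PEPR1 alone. MPK3 (AT3G45640), which phosphorylates WRKY33, fell by 1.31 on the log2 scale (q 0.00183) in the authors' deposited table. Its close relative MPK6 (AT2G43790) stood at -0.40 (q 0.393) in the authors' deposited table. EFR (AT5G20480), a receptor for a bacterial protein, rose with a ratio of 2.40 (q 0.000551), and the kinase gene MKK5 (AT3G21220) at 1.09 (q 0.0130), in the authors' deposited table. FLS2, the flagellin receptor, was under 1 FPKM in all 6 groups.

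VQ proteins bind WRKY factors and tune them. Of 5 tested at day 3 over day 0, 3 fell and none rose, against 21.2% and 21.0% of all genes. SIB1 (AT3G56710), which binds WRKY33, had an FPKM of 79.5 in meristematic constructs and 77.8 in meristematic cells, and in differentiated constructs 28.2 on day 0, 7.95 on day 1 and 4.53 on day 3, against 41.8 in differentiated cells. Its ratio at day 3 over day 0 was -2.64 (q 0.000551) in the authors' deposited table. MKS1 (AT3G18690), which links the kinase MPK4 to WRKY33, fell in constructs against isolated cells of both tissues, at -1.20 in differentiated (q 0.00387) and -1.79 in meristematic tissue (q 0.000551), in the authors' deposited table. Among salicylic acid genes, 5 of 10 tested fell at day 3 over day 0 and none rose, set against the same shares of all genes. They included the transporter EDS5 (AT4G39030) at -2.29 and the signalling gene PAD4 (AT3G52430) at -2.15, each with a q of 0.000551 in the authors' deposited table. The salicylic acid marker PR1 was at or near 0 in all 6 groups, its highest value being 0.00536 FPKM.

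Most genes of camalexin synthesis, which WRKY33 is known to activate, rose by day 1 in differentiated constructs. WRKY33 was called lower at day 3 over day 0, but not at day 1 over day 0 (log2 ratio -0.61, q 0.276, in the authors' deposited table). Of 8 tested camalexin genes, 5 rose and 1 fell both at day 1 and at day 3 over day 0, with a median log2 ratio of 3.00 at day 1 and 3.66 at day 3. Over all genes, 16.2% rose and 16.4% fell at day 1, and 21.0% rose and 21.2% fell at day 3. PAD3 (AT3G26830), the last enzyme of the pathway, had an FPKM of 23.3 in differentiated constructs on day 0, 330.3 on day 1 and 392 on day 3, against 19.6 in differentiated cells. CYP71A12 (AT2G30750), an enzyme that turns indole-3-acetaldoxime into a nitrile, had 21.3 on day 0, 1196 on day 1 and 1287 on day 3, against 17.5 in differentiated cells. Its ratio at day 1 was 5.81 and that of PAD3 3.82, each with a q of 0.000551 in the authors' deposited table. CYP71A13, a near-identical copy of CYP71A12 and the form best known from camalexin, was under 1 FPKM in all groups, so how reads were split between both is uncertain. CYP79B2 (AT4G39950), which makes the oxime, had log2 ratios of 3.50 for day 1 and 4.54 for day 3 (each with a q of 0.000551) in the authors' deposited table. GGP1 (AT4G30530), which trims a glutathione conjugate, was the 1 gene that fell, at -1.18 at day 1 (q 0.0460) and -1.67 at day 3 (q 0.00757) in the authors' deposited table. MYB51 (AT1G18570), an activator of indole glucosinolate synthesis, stood at 0.28 at day 1 (q 0.530) in the authors' deposited table.

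**Figure D3:**
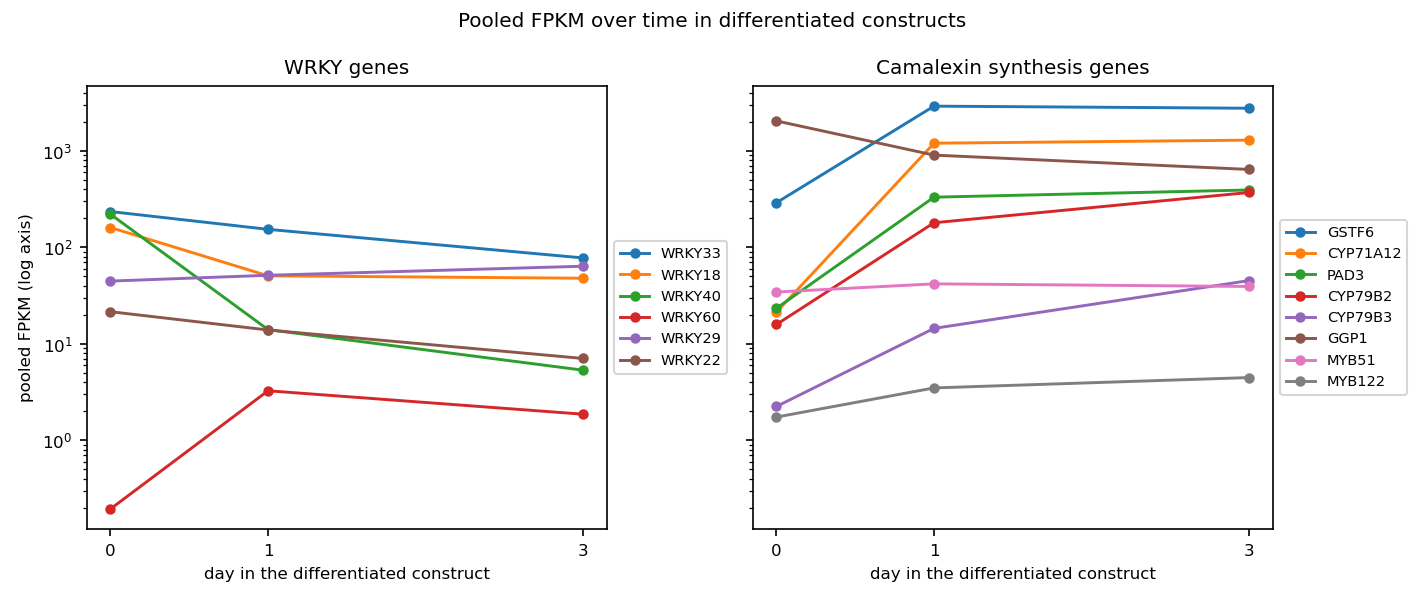
Pooled FPKM (log axis) at days 0, 1 and 3 in differentiated constructs for 6 of the WRKY genes (left) and 8 camalexin synthesis genes (right); lines join the authors' pooled values of 1 gene. WRKY33 had 234, 153 and 77.5 over the 3 days while PAD3 had 23.3, 330.3 and 392.

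The early response genes triggered by microbial patterns split. Of 14 tested, 4 rose and 5 fell at day 3 over day 0, shares of 28.6% and 35.7%, against 21.0% and 21.2% of all genes. ACS2 (AT1G01480), an ethylene synthesis gene that WRKY33 also activates, had an FPKM of 7.14 in differentiated constructs on day 0, 304 on day 1 and 559.5 on day 3, against 7.24 in differentiated cells. Its ratio at day 3 was 6.29, and that of CYP81F2 (AT5G57220), an enzyme of indole glucosinolate metabolism and defence, was 4.46 (q 0.000551 each) in the authors' deposited table. PHI-1 (AT1G35140), a phosphate-induced cell wall protein gene, rose too, its log2 ratio being 3.81 (q 0.000551) in the authors' deposited table. Among those lower, NUDT7 (AT4G12720) had an FPKM of 112 in differentiated constructs on day 0, 27.6 on day 1 and 13.5 on day 3. The ratio of NUDT7 at day 1 over day 0 was -2.01 (q 0.000551) in the authors' deposited table. PROPEP3 (AT5G64905) had 130 on day 0, 49.97 on day 1 and 24.5 on day 3, with a ratio of -1.03 at day 3 over day 1 (q 0.0425) in the authors' deposited table. PROPEP2 (AT5G64890), a danger peptide precursor, was listed at 0 at day 3 and at 2.07 FPKM at day 0, and such a 0 can be a failed estimate. FRK1, a kinase gene used as a marker of this response, was under 1 FPKM in all 6 groups. Of 4 tested senescence genes, 2 fell and 1 rose at day 3 over day 0, against 21.2% and 21.0% of all genes, and no more is read from so few. SAG12, SAG13 and SAG29 were under 1 FPKM in all 6 groups. NAC092 (AT5G39610), at 46.8 FPKM on day 0 and 61.1 on day 3 in differentiated constructs, was not called. SAG21 (AT4G02380), a stress and senescence gene, fell by 3.03 (q 0.000551), and NAP (AT1G69490), a senescence regulator, stood at -2.52 (q 0.000551), in the authors' deposited table. SGR1 (AT4G22920), a chlorophyll breakdown gene, rose with 2.12 (q 0.000551) in the authors' deposited table.

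Of 6 phosphate genes, 2 rose and 1 fell at day 3 over day 0, shares of 33.3% and 16.7%, against 21.0% and 21.2% of all genes. PHO1 (AT3G23430), the exporter gene under WRKY6, had an FPKM of 6.95 in differentiated constructs on day 0, 0.943 on day 1 and 0.695 on day 3, against 5.94 in differentiated cells, and its ratio at day 3 was -3.32 (q 0.000551) in the authors' deposited table. The phosphate importers PHT1;4 (AT2G38940) and PHT1;1 (AT5G43350) rose, with log2 ratios of 1.41 for PHT1;4 (q 0.00102) and 1.17 for PHT1;1 (q 0.00448) in the authors' deposited table.

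Between constructs and cells at day 0, all genes were called less often than over time. The shares were 7.38% lower and 5.08% higher in differentiated and 8.52% lower and 1.86% higher in meristematic constructs over cells. In differentiated constructs over cells, 4 of 14 tested early response genes fell (28.6%) and 1 rose, 1 of 6 VQ genes and 1 of 5 phosphate genes fell, and none of 16 receptor and kinase genes, 8 camalexin genes and 10 salicylic acid genes was called by the authors' q-values. In meristematic constructs over cells, 2 of 6 VQ genes fell, and 1 gene each fell among 16 receptor and kinase genes, 14 early response genes, 10 salicylic acid genes and 6 phosphate genes. Between constructs at day 0, where 4.77% of all genes were higher and 4.61% lower in meristematic ones, 4 of 14 early response genes were higher and none lower, and 1 of 8 camalexin genes was higher and 3 lower.

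**Figure D4:**
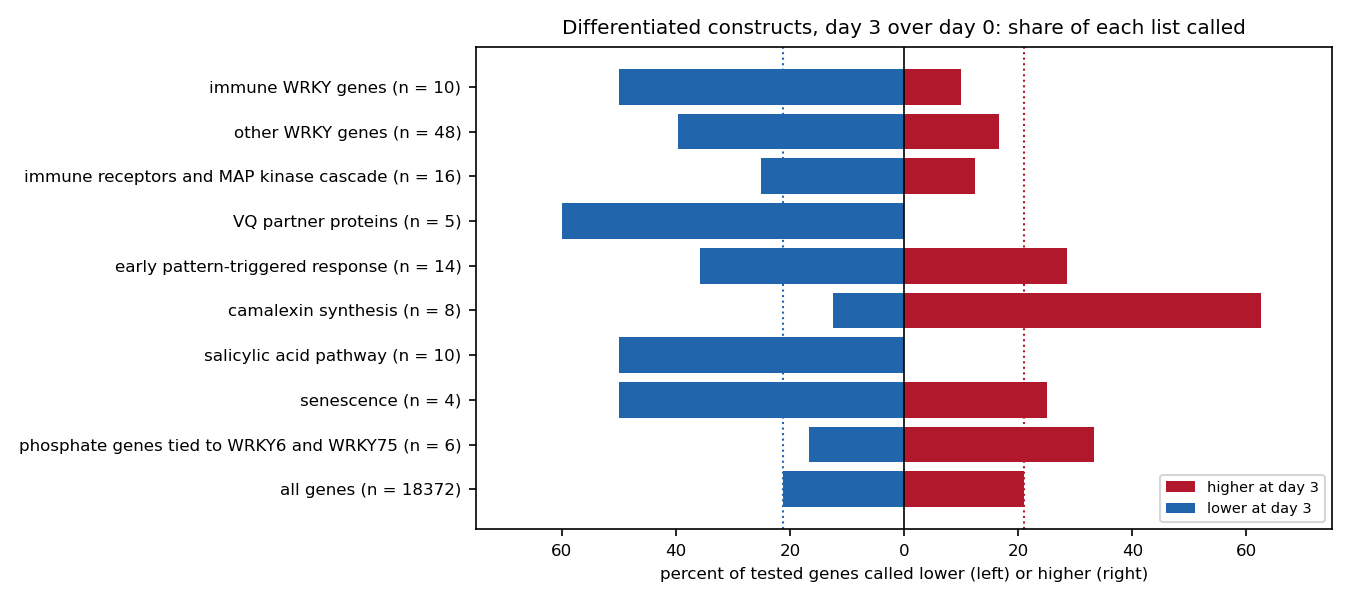
Share of tested genes called higher (red, right of 0) or lower (blue, left of 0) at day 3 over day 0 in differentiated constructs, for each list and for all genes; dotted lines mark the shares of all genes, 21.0% higher and 21.2% lower. The immune WRKY genes had 5 of 10 lower and 1 of 10 higher, and the camalexin genes 5 of 8 higher and 1 of 8 lower.

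Genes with the most similar profiles over the 6 groups were sought for the 9 members that reached an FPKM of 10, by the root mean square difference of centred log2(FPKM + 1). For WRKY40 they were XTH19 (AT4G30290), a wall enzyme gene, at 0.181, LEA7 (AT1G52690), a late embryogenesis protein gene, at 0.246 and LTI78 (AT5G52310), a drought and cold response gene, at 0.246. LTI78 had an FPKM of 414 in differentiated constructs on day 0, 17.0 on day 1 and 7.89 on day 3, against 443 in differentiated cells. For WRKY33 they were ABI2 (AT5G57050), a phosphatase of abscisic acid signalling, at 0.110, MRB1 (AT4G22270) at 0.114 and HEXO1 (AT3G55260) at 0.122. WRKY22 was closest to MC3 (AT5G64240), a metacaspase gene, at 0.0877, and shared MRB1, at 0.103. WRKY29 was closest to RANBP1 (AT5G58590), at 0.121, and ARR7 (AT1G19050), a type-A response regulator of cytokinin, at 0.122. For the other members the closest genes were MYB2 (AT2G47190) for WRKY18 at 0.0621, FUT6 (AT1G14080) for WRKY53 at 0.0767 and HXK1 (AT4G29130) for WRKY70 at 0.0797. They were TBL16 (AT5G20680) for WRKY6 at 0.0361 and SAP5 (AT3G12630) for WRKY75 at 0.111. These likenesses rest on 6 pooled values and describe them only.

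**Figure D5:**
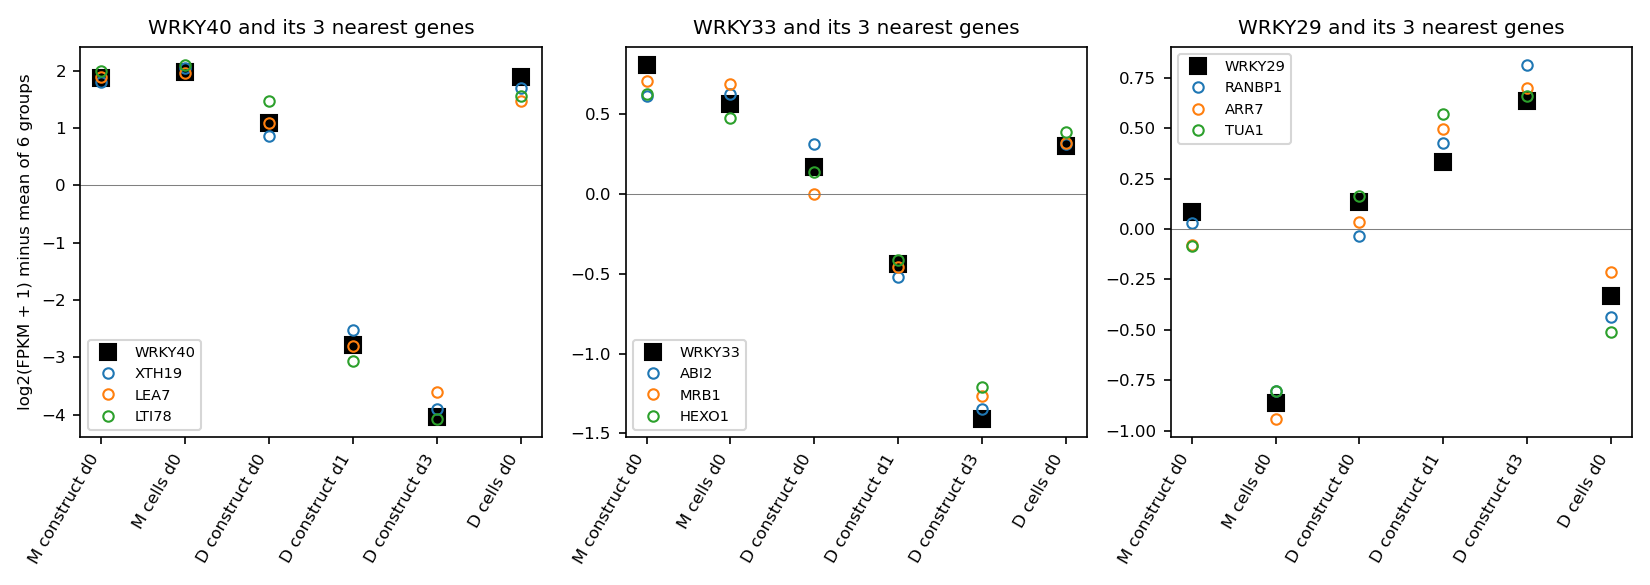
Centred log2(FPKM + 1) over the 6 groups for WRKY40, WRKY33 and WRKY29 (black squares) and the 3 genes closest to each (open circles). The 3 genes near WRKY40 share its low values at days 1 and 3, and those near WRKY29 its low value in meristematic cells.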

How the data were processed

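RNA of 17 libraries was extracted with TRIzol, selected for poly(A) tails, made into strand-keeping libraries and read from both ends (150 bases each), per the labels' protocols. HISAT2 and Cufflinks were used, per the submitters' processing notes; their versions and settings, the use of strand and the genome build are not stated there. Values are FPKM, made by the authors, in 1 deposited table per library and 1 per group. The second also holds log2 ratios and q-values deposited by the authors for 7 comparisons; how q was made is not given. Across libraries the lines do not hold 1 gene each: between libraries, log2(FPKM + 1) had a median correlation of 0.290 over lines as deposited, 0.998 after sorting each library by value and 0.942 between pooled columns. The planned limma fits were therefore not run and the authors' q-values were used. The ratio between constructs of both tissues was turned in sign to meristematic over differentiated. Depth per library is unknown.

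Members and gene lists were chosen with earlier results of these data known. All 10 members are named; of each list, up to 4 called genes per comparison with the smallest q (ties by size of ratio) could be named, and genes given with values for contrast were chosen after their values were seen. The 3 closest genes were sought among named genes that reached 10 FPKM. Symbols came from the TAIR10.1 reference, where 32218 of 32919 single IDs matched; its gene positions were used only to find which genes overlap, and none is printed because the authors' build is not given. Calls, scaling and likeness were tested on simulated data. Python 3.11.15, pandas 2.3.3 and numpy 2.4.6 were used.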

Additional observations from a re-analysis of the deposited data

How the results depend on the processing

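Under 5 other thresholds, 57 of 70 recomputed counts of called members stayed equal to or within 1.5 times the value reported and 13 did not. A reported count of 0 cannot change under a stricter threshold, so part of the 57 was fixed beforehand. With q under 0.01, members called lower numbered 0 in differentiated constructs over cells and 0 in meristematic constructs over cells. Under that setting 0 were called higher in meristematic constructs over cells, at day 3 over day 0, and in meristematic over differentiated constructs. With q under 0.1, 2 were lower in differentiated constructs over cells (WRKY40 with WRKY53) and 1 at day 3 over day 1 (WRKY22), while 1 was higher in meristematic over differentiated cells (WRKY75) and 3 in meristematic over differentiated constructs. With an FPKM of at least 5 required, the higher call of WRKY60 was lost at day 1 and day 3 over day 0 (0 each). Requiring a log2 ratio of 1 in size left 0 higher in meristematic constructs over cells and 0 in meristematic over differentiated constructs. The falls of WRKY18, WRKY22, WRKY33, WRKY40 and WRKY70 at day 3 over day 0 and of WRKY18 and WRKY40 at day 1 passed at q under 0.01 too; that of WRKY70 at day 1 did not. Rescaled values have no q of their own, so rescaling tests no call. Quantile scaling changed the sign of 9 of 70 member ratios, none of them called. TPM and median-ratio scaling shift all genes of a comparison alike, and adding 1 to FPKM cannot change a sign. TPM rescaling moved the median of all genes by 0.34 in meristematic constructs over cells, 0.32 at day 3 over day 0 and -0.31 in meristematic over differentiated cells. Over all genes, the count called at day 3 over day 0 was 7761, and 5410 with q under 0.01, a check added after seeing the data. No paired analysis was possible because lines of the table of single libraries mix genes, so fits per library, with a replicate block or with a replicate left out, were not run, and no value here has an error from replicates.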
